A study of Mus musculus with 6 samples.

Results

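The myeloid C-type lectin receptor genes described here are Clec4a1, Clec4a2, Clec4a3, Clec4b1, Clec4d, Clec4e, Clec4n, Clec7a, Clec10a and Clec12a, 10 of 30063 named genes on the array. They were picked by name with their AML against control values on these arrays already known, so their levels and differences are given as a description, without a test. Each gene has 1 row on the array. Megakaryocytes, polyploid marrow cells from which platelets are shed, were sorted from bone marrow by high side scatter, high CD41 and a DNA content of at least 8N. The tested arrays hold sorts from female C57 mice with acute myeloid leukaemia (AML) induced by the fusion oncogene MLL-AF9 (3 arrays), and the others hold sorts from healthy female C57 control mice (3 arrays). By their labels the sorts are biological replicates, but neither the age of the mice nor how many mice went into a sort is given.

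C-type lectin receptors are membrane proteins of phagocytes and dendritic cells that bind sugars and lipids of microbes and of dying cells. Activating members signal through the adaptor FcR gamma chain (Fcer1g) or through a tyrosine motif of their own to the kinase SYK and the adaptor CARD9, which lead to NF-kappaB and to inflammatory cytokines. Inhibitory members carry a tyrosine motif (ITIM) that recruits the phosphatases SHP-1 (Ptpn6) and SHP-2 (Ptpn11). Platelets and megakaryocytes are known for another receptor of the family, CLEC-2, encoded by Clec1b.

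All 10 genes stood lower in the AML sorts, by between 0.30 and 2.21 on the log2 scale. The median difference, AML minus control, was -1.65, a 3.15-fold lower level, against +0.11 over all genes tested. The difference was at least 2-fold in 7 of the 10. All 3 AML arrays lay below all 3 control arrays in 10 of 10 genes, as they did in 13.1% of all genes tested, and 9 of the 10 were past an adjusted p of 0.05 in limma's moderated test in the lower direction, as were 6.25% of all genes. These counts only restate how the genes were picked. Values are log2 expression values from the RMA procedure, ± is the SD over 3 arrays. Precision is limited by there being 3 arrays a group. In bulk RNA, fewer cells of a type and less RNA per cell cannot be told apart.

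Among the activating receptors, Clec7a encodes dectin-1, the receptor for fungal beta-glucan. It read 8.78, 8.41 and 8.18 on the AML arrays, against 9.99, 10.08 and 10.41 on the control arrays. The highest AML array stayed 1.22 below the lowest control array, and the means, 8.45 ± 0.30 in AML and 10.16 ± 0.22 in control, differed 3.26-fold. Clec4e encodes Mincle, a receptor for mycobacterial cord factor and for a nuclear protein released by dead cells. Its values were 8.36, 8.74 and 7.93 in AML and 9.78, 9.98 and 10.14 in control, a 3.08-fold lower level in AML. Clec4d encodes MCL, which pairs with Mincle and supports its expression. It read 6.36, 6.63 and 6.42 in AML, against 7.97, 8.08 and 8.42 in control, or 3.22-fold lower.

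Clec4n, the gene of dectin-2, a receptor for fungal mannans, differed less. Its AML values of 6.36, 5.73 and 6.31 lay below the control values of 6.85, 6.93 and 7.09, with a gap of 0.48 between the groups and a 1.77-fold lower mean. The second AML array was the low one. Clec4b1 encodes DCAR, an activating receptor for mycobacterial glycolipids that pairs with the FcR gamma chain. It stood at 6.62, 6.39 and 6.09 in AML and at 8.64, 8.49 and 8.59 in control, 4.61-fold lower in AML, and its groups were separated by 1.87, the widest gap of the 10 genes.

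The genes named after the dendritic cell immunoreceptor (DCIR) stood lower as well. Clec4a2 encodes DCIR1, which carries an ITIM. It read 7.43, 7.30 and 7.05 in AML against 8.30, 8.37 and 8.53 in control, a 2.20-fold lower level. Clec4a3 (DCIR3) read 6.12, 5.75 and 5.64 in AML, against 8.05, 7.96 and 8.15 in control. With 5.84 ± 0.25 in AML and 8.05 ± 0.10 in control, its difference of -2.21 was the largest of the 10 genes. Clec4a1 (DCIR4) had 6.54, 5.82 and 5.88 in AML and 8.28, 8.07 and 7.91 in control, and the first AML array was its highest AML value. The 3 genes belong to the same family, and how alike their sequences are was not computed. Probes that bind transcripts of more than 1 of them would make their separate values uncertain.

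Clec10a encodes the macrophage galactose-type lectin MGL1 and lies on chromosome 11, apart from the other 9 genes on chromosome 6. Its values of 6.10, 6.31 and 6.28 in AML and 7.21, 7.10 and 7.24 in control were the tightest in AML (SD 0.11), with a 1.95-fold lower mean in AML. Clec12a encodes MICL, an ITIM-bearing receptor for uric acid crystals, whose human counterpart, also called CLL-1, is known as a surface antigen of AML blasts. It had the smallest difference. The AML values were 9.31, 9.21 and 8.74 and the control values 9.35, 9.40 and 9.41, so that the groups were 0.05 apart and AML array 3 alone stood clearly lower. Its difference was -0.30 with all arrays and -0.13 without AML array 3.

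**Figure D1:**
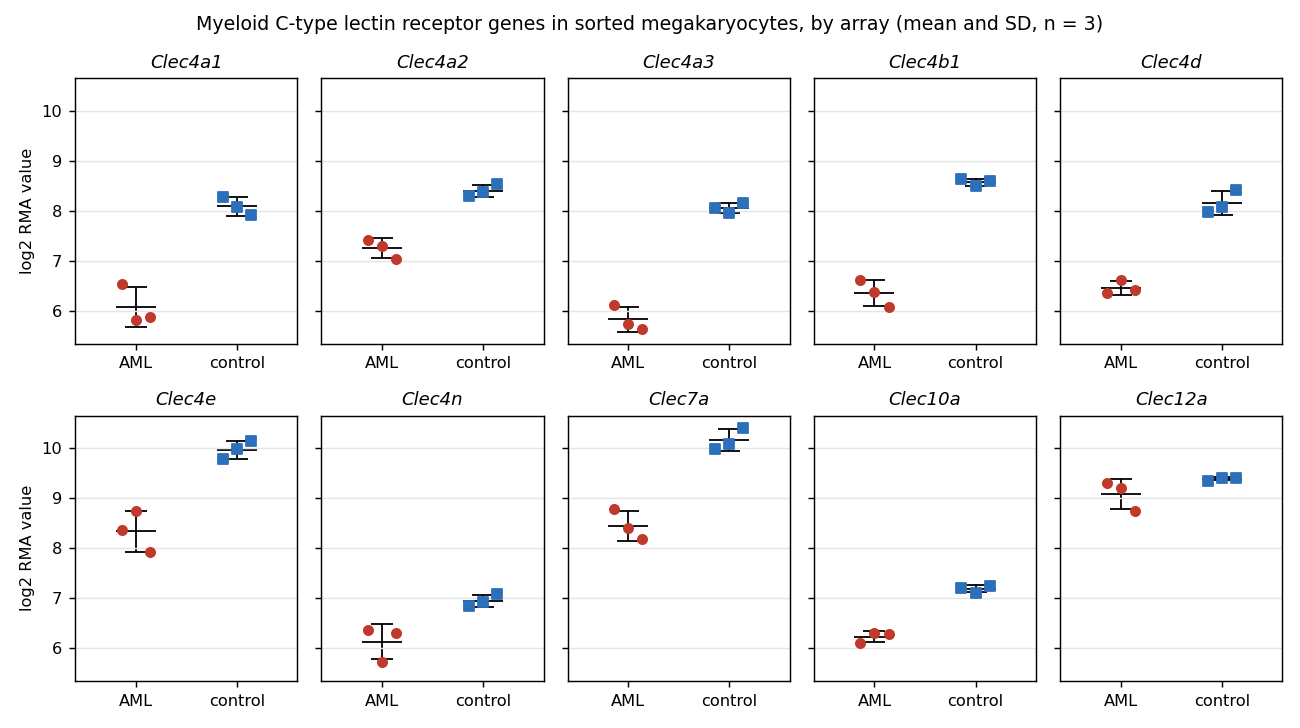
Log2 RMA value (vertical axis) of each of the 10 genes on the 3 AML arrays (circles, left) and the 3 control arrays (squares, right), with bars for the mean and SD. The groups are separated by 0.05 for Clec12a and by 0.48 to 1.87 for the other 9 genes.

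The AML arrays differed more among themselves than the control arrays did. The SD of the 10 genes ran from 0.11 to 0.41 in AML and from 0.03 to 0.24 in control, and it was larger in AML for 9 of the 10. The mean over the 10 genes was 7.20, 7.03 and 6.85 on AML arrays 1, 2 and 3, against 8.44, 8.45 and 8.59 on the control arrays. AML array 1 held the highest AML value of 7 genes and AML array 3 the lowest of 6. AML array 3 also stood apart in other respects: its spiked hybridization controls had a mean of 11.71, where the remaining 5 arrays ran from 10.73 to 11.11. The median of olfactory and vomeronasal receptor genes, taken as dim, was 3.58, 3.56 and 3.87 on AML arrays 1 to 3. On control arrays 1 to 3 it was 3.54, 3.34 and 3.34. Without AML array 3, the median difference of the 10 genes was -1.49, the smallest that the 14 alternative settings gave.

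The order of genes along chromosome 6 places 7 of the 10 side by side. In RefSeq's order (GRCm38.p6) the cluster runs Clec4a1, Clec4a3, Clec4a4, Clec4b1, Clec4a2, Clec4b2, Clec4n, Clec4d and Clec4e, and holds 9 protein-coding genes. All AML arrays lay below all control arrays in 9 of these 9 genes, against 13.1% of all genes tested, but 7 of the 9 were picked with that separation known. The other 2 are Clec4a4, the gene of the ITIM-bearing DCIR2, and Clec4b2, the gene of DCAR1, a close relative of DCAR. Clec4b2 read 5.03, 5.22 and 5.42 in AML and 6.02, 6.24 and 6.23 in control, and it fell at least 1.57-fold (adjusted p = 0.00526 by limma). The fold is a lower bound because the AML mean was under 5.51, the level below which 95% of 1528 olfactory and vomeronasal receptor genes, a family taken as dim, had their means.

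Clec4a4 lay below that level in both groups, at 4.24 ± 0.21 in AML and 4.85 ± 0.18 in control. Its fall passed limma's test (adjusted p = 0.0344) but depended on single arrays: it was lost with AML array 1 or AML array 2 left out, and likewise with control array 2 or 3 left out (adjusted p up to 0.132). The pseudogenes Gm22946 and Gm5883, which lie within the cluster, were not past the threshold (adjusted p = 0.281 and 0.920). Gm5883, which lies between Clec4b2 and Clec4n, read 9.77, 9.78 and 9.67 in AML and 9.70, 9.68 and 9.80 in control, so that its groups overlapped. Whether the probes of this pseudogene bind transcripts of genes elsewhere was not computed, so its values may not describe this place on the chromosome.

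A second stretch of chromosome 6 runs Clec12a, Clec12b, Clec1b, Clec9a, Clec1a and Clec7a. Here the AML arrays lay below all control arrays only at the ends, in Clec12a and Clec7a, 2 of 6 protein-coding genes, and both belong to the 10 genes picked. Clec1b, the gene of the platelet receptor CLEC-2, had 10.96, 10.69 and 11.12 in AML and 11.19, 10.46 and 10.69 in control. The groups overlapped, the difference was +0.14 with a 95% confidence interval from -0.32 to 0.61, and the adjusted p was 0.617. Clec9a, the gene of a dendritic cell receptor for dead cells, read 7.67, 7.25 and 7.85 in AML and 7.73, 6.88 and 6.40 in control (adjusted p = 0.240), with the first control array inside the AML range. Clec12b and Clec1a read below the dim level in both groups and were not past the threshold (adjusted p = 0.451 and 0.925).

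Sequence upstream of the start was listed by RefSeq for 8 of the 10 genes, all but Clec4n and Clec10a. Because these genes stood lower together, 5 short motifs were looked for on both strands of the 250 bases before the first listed start of each. The core GAGGAA, found in binding sites of the myeloid factor PU.1, was present in 6 of the 8 windows (Clec4a1, Clec4b1, Clec4d, Clec4e, Clec7a and Clec12a) and in 23.1% of 27025 windows of the same length. TGTGGT, a RUNX core, was present in 4 of 8 against 14.2% of all windows. TATAAA was in 2 of 8 against 13% of all windows. TGANTCA, the AP-1 site, was in 1 of 8 against 6.87%, and AGATAA, a core bound by erythroid and megakaryocytic zinc finger factors, was in 0 of 8 against 10.3%. The motifs were chosen with these sequences in view, and a match is a description, not a binding site. The 8 windows belong to related genes and may not be independent of each other, and how alike they are was not computed.

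The 130 bases before the start are shown for 6 of the 8 genes, the 2 without GAGGAA in their window and 4 with it, and for Clec1b, whose groups overlapped. They are read 5′ to 3′ on the gene's strand, from RefSeq's GRCm38.p6, and capitals mark GAGGAA or its complement TTCCTC. They lie at chr6:122952385-122952514 (+) for Clec4a3, chr6:123122560-123122689 (+) for Clec4a2, chr6:123049832-123049961 (+) for Clec4b1, chr6:123289872-123290001 (-) for Clec4e, chr6:129472780-129472909 (-) for Clec7a, chr6:129350114-129350243 (+) for Clec12a and chr6:129397167-129397296 (+) for Clec1b.
Clec4a3: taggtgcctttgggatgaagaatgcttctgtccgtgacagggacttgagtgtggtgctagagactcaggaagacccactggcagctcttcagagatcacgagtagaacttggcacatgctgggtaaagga
Clec4a2: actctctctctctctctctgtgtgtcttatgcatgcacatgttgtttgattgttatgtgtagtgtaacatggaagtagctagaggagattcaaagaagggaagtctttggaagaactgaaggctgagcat
Clec4b1: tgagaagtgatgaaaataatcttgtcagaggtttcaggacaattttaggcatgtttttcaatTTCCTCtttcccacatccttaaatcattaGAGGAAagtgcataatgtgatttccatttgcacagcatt
Clec4e: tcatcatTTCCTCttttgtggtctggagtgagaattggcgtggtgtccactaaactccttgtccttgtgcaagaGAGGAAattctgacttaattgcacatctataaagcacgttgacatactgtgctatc
Clec7a: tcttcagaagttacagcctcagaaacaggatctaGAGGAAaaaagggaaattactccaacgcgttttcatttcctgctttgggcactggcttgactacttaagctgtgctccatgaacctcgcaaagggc
Clec12a: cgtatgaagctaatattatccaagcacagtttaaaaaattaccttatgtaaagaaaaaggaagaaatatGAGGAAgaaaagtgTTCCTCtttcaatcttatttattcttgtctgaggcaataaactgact
Clec1b: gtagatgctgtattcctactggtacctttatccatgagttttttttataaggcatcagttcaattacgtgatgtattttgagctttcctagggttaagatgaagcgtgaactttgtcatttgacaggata
The stretch of Clec12a, the gene with the smallest difference, holds the core 2 times, as do those of Clec4b1 and Clec4e, while that of Clec7a holds it 1 time. Those of Clec4a3, the gene with the largest difference, of Clec4a2 and of Clec1b hold it 0 times. Binding was not measured.

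A further list held 43 other genes of the C-type lectin family with a value, not all of which encode receptors. Of these 43, 11 fell in AML and 0 rose by limma's test over all genes (adjusted p under 0.05), where 6.25% of all genes fell and 4.49% rose. At an unadjusted p under 0.05 the counts were 13 lower and 6 higher. The median difference of the list was +0.04, against +0.11 over all genes, and 21 of the 43 had a mean at or below the dim level. The shares over all genes include dim genes as well. With only genes above that level tested, a filter chosen after seeing the data, 9 of 22 fell and 1 rose. Of all 13248 genes tested there, 2019 fell and 1054 rose.

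Cd209a, a mouse relative of the dendritic cell lectin DC-SIGN, read 4.95, 4.96 and 4.55 in AML and 7.53, 7.82 and 7.84 in control, and fell at least 4.65-fold (adjusted p = 2.81e-04). Clec5a encodes MDL-1, a myeloid receptor that signals through the adaptor DAP12 (Tyrobp). It fell at least 3.35-fold, with 4.99, 4.87 and 4.67 in AML and 6.95, 7.32 and 7.50 in control (adjusted p = 4.78e-04). Mrc1, the macrophage mannose receptor gene, fell 3.87-fold to 6.86 ± 0.37 in AML, against 8.82 ± 0.08 in control (adjusted p = 0.00149). In each of these 3 genes the AML arrays lay below all control arrays by more than 1 log2 unit.

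Cd302, an endocytic lectin gene of myeloid cells, fell at least 2.35-fold (adjusted p = 3.49e-04). Cd209g and Cd209f, further genes of the DC-SIGN family, fell by 1.72 and 1.44 on the log2 scale (adjusted p = 8.44e-04 and 0.00255). Mgl2, the paralog of Clec10a, fell 1.61-fold, with 6.54, 6.65 and 6.58 in AML and 7.26, 7.17 and 7.39 in control (adjusted p = 0.00431). Clec2d, which encodes a ligand of an inhibitory natural killer cell receptor, fell 1.91-fold (adjusted p = 0.00731). Fcer2a, the gene of the low-affinity IgE receptor, was below the dim level in both groups. Its fall of 0.29 (adjusted p = 0.0320) was lost whichever array other than AML array 3 was left out (adjusted p up to 0.133).

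Of the lectin genes not past the threshold, the following were chosen after their values were seen. Selp, the P-selectin gene of platelet alpha granules, stood at 8.34 ± 0.73 in AML and 8.09 ± 0.18 in control (adjusted p = 0.611). Olr1, the gene of a receptor for oxidised low-density lipoprotein, read 10.54, 10.84 and 9.55 in AML and 9.90, 10.05 and 9.66 in control (adjusted p = 0.338). It passed upward without AML array 3 (adjusted p = 0.0202). Sele, the E-selectin gene, read 4.48, 4.53 and 5.50 in AML and 5.87, 5.70 and 5.70 in control (adjusted p = 0.0674), and it passed downward without AML array 3 (adjusted p = 9.45e-04) and under median centring. AML array 3 thus held the most extreme AML value of all 3 of these genes.

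**Figure D2:**
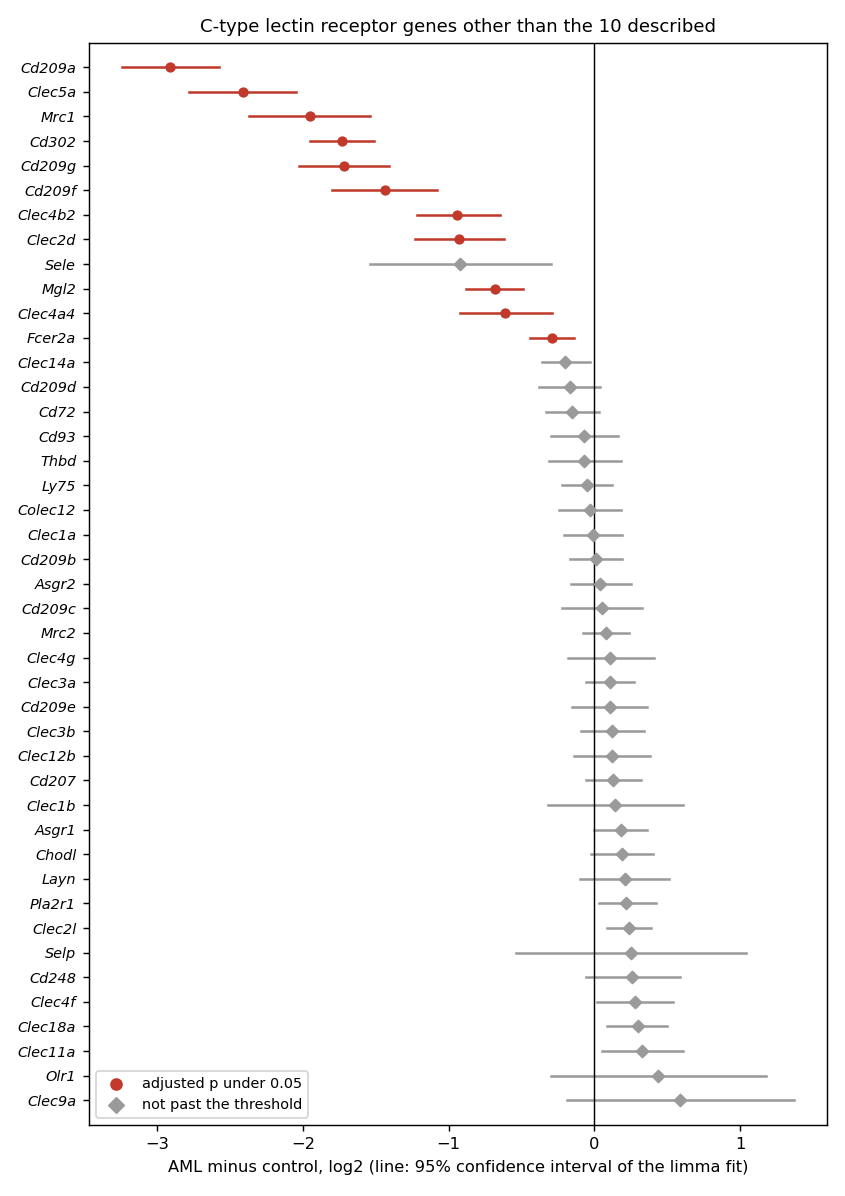
Difference AML minus control (log2, horizontal axis) of 43 other genes of the C-type lectin family, not all of which encode receptors, with lines for the 95% confidence interval of the limma fit. The 11 genes past an adjusted p of 0.05 (circles) all lie left of 0, and Clec1b lies at +0.14 with an interval that spans 0.

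The lectin-like receptors of natural killer cells mostly lie near the second stretch of chromosome 6. Of 22 measured, 8 fell and 0 rose by limma's test, with 8 lower and 2 higher at an unadjusted p under 0.05 and a median difference of -0.07. Of the 22, 18 had a mean at or below the dim level, among them Klrk1, the gene of the activating receptor NKG2D. Klrk1 read 3.52, 3.59 and 3.61 in AML, against 4.88, 4.82 and 5.07 in control (adjusted p = 4.78e-04). Klrc1 and Klri1 were likewise dim in both groups (adjusted p = 0.00241 and 0.00408), and Klrb1f fell at least 1.65-fold (adjusted p = 0.00156). Cd69, an early activation marker of leukocytes chosen after its values were seen, was among the 4 genes above the dim level and fell 3.43-fold, with 6.79, 6.88 and 7.33 in AML and 8.35, 8.82 and 9.15 in control (adjusted p = 0.00512).

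Of 22 measured genes of the route from the activating receptors to NF-kappaB, 11 fell and 2 rose (limma, adjusted p under 0.05), with a median difference of -0.42. The counts depended on single arrays. With AML array 1 left out 7 fell and 0 rose, with AML array 2 left out 7 and 1, with control array 2 left out 5 and 0, and with control array 3 left out 6 and 0. The adaptor gene Fcer1g, whose product carries the signal of dectin-2, Mincle, MCL and DCAR, read 9.58, 9.68 and 9.51 in AML and 10.13, 10.13 and 10.25 in control, a 1.50-fold fall (adjusted p = 0.00633). Malt1, the protease of the complex that CARD9 forms with BCL10, fell 2.22-fold (adjusted p = 0.00298). The NF-kappaB subunit genes Rel and Nfkb2 fell 2.79-fold and 1.76-fold (adjusted p = 0.00581 and 0.00220).

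Card9, Btk, Syk, Tyrobp and Bcl10 were chosen after their values were seen. Card9 moved the other way from its partner Malt1, with 6.77, 6.74 and 6.37 in AML and 5.88, 6.16 and 6.04 in control. Its rise of 1.52-fold (adjusted p = 0.0322) was lost under median centring and without any single array other than AML array 3 (adjusted p up to 0.107). Btk, a kinase downstream of SYK, rose 1.35-fold (adjusted p = 0.0451), a call lost under median centring and without any single array other than AML array 2 (adjusted p up to 0.150). Syk fell 1.76-fold to 7.01 ± 0.18 in AML, against 7.82 ± 0.16 in control (adjusted p = 0.00975). Tyrobp fell 1.48-fold (adjusted p = 0.0337), a call lost when AML array 1 or a control array, whichever it was, was left out (adjusted p up to 0.122). Bcl10 stood at 6.18 ± 0.13 in AML and 6.57 ± 0.14 in control (adjusted p = 0.0570), and it passed downward under median centring, without the dimmest genes or without AML array 3 (lowest adjusted p = 0.0321).

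Of 8 genes that restrain these receptors, 2 fell and 0 rose (4 and 0 at an unadjusted p under 0.05), with a median difference of -0.35. Ptpn22, a phosphatase of immune cells, fell 2.85-fold to 6.07 ± 0.29 in AML, against 7.59 ± 0.15 in control (adjusted p = 0.00220). Lilrb4a, the gene of an ITIM-bearing receptor of myeloid cells, fell 2.78-fold (adjusted p = 6.44e-04). The SHP-1 gene Ptpn6, through which the ITIM of DCIR1 and MICL signals, stood at 8.55 ± 0.30 in AML and 8.91 ± 0.20 in control (adjusted p = 0.179). The SHP-2 gene Ptpn11 stood at 7.83 ± 0.33 in AML and 7.73 ± 0.12 in control (adjusted p = 0.674). Both were added after their values were seen.

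Among 20 genes that phagocytes are known to induce through these receptors, 13 fell and 1 rose, with a median difference of -1.12. Many other stimuli induce the same genes. Ptgs2, which encodes the prostaglandin synthesis enzyme COX-2, read 7.04, 6.88 and 7.26 in AML and 9.40, 9.50 and 9.52 in control, a 5.33-fold fall (adjusted p = 2.21e-04). Nlrp3, the inflammasome sensor gene, fell 5.76-fold (adjusted p = 2.99e-04), and Nfkbiz, a nuclear regulator of NF-kappaB target genes, fell 2.44-fold (adjusted p = 7.54e-04). Il6 also passed, as the fall with the largest difference of the list (-3.44). Egr3, an immediate early transcription factor gene, was the 1 that rose, by 0.53 (adjusted p = 0.0144), a call lost without control array 2 or control array 3 (adjusted p up to 0.0744).

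**Figure D3:**
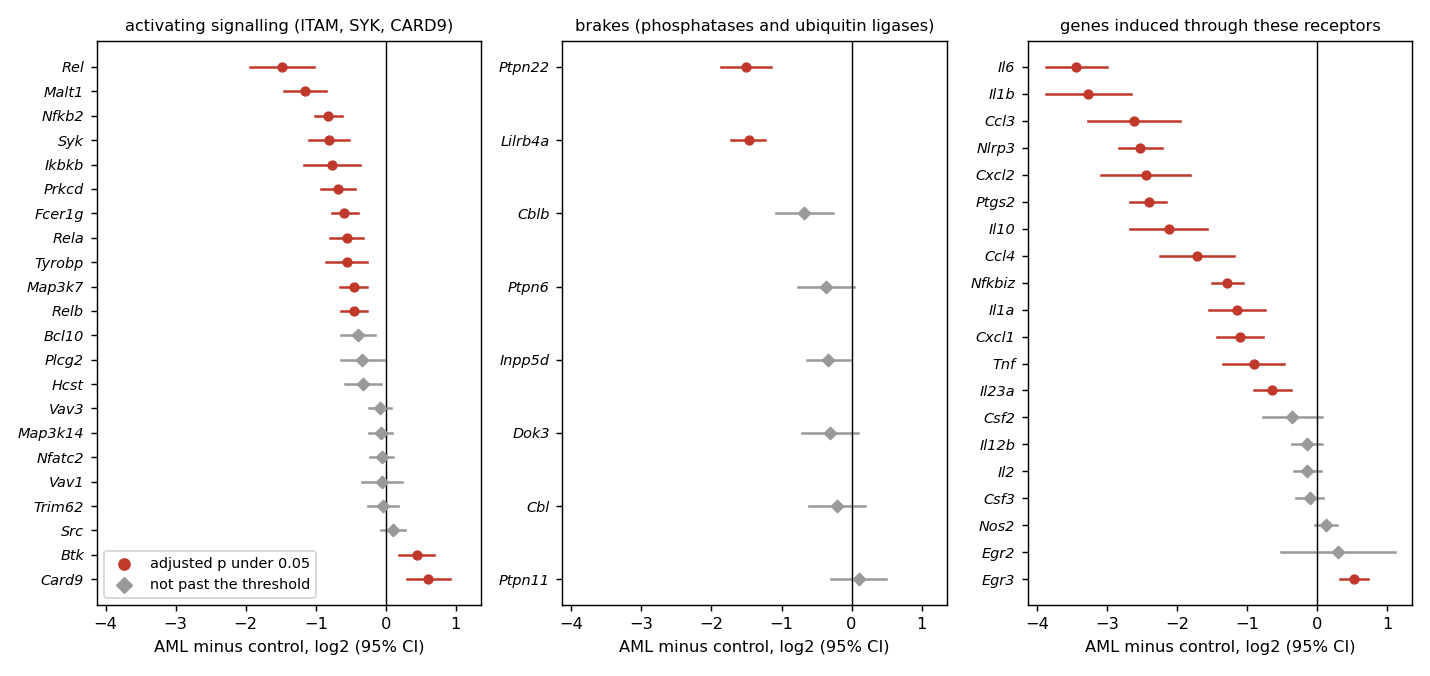
Difference AML minus control (log2, horizontal axis, with 95% confidence interval) of genes that carry signals of activating receptors, restrain them or are induced through them. Circles mark an adjusted p under 0.05, and Card9, Btk and Egr3 are the genes past it that lie right of 0.

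Marker lists of other cell types were read from the same sorts. Of 10 monocyte markers 8 fell and 0 rose, and the sum of their values on the linear scale ran from 5658 to 7583 in AML and from 7936 to 9014 in control. Such a sum weighs the brightest genes of a list most, here Ly6c2. Lyz2, the lysozyme gene, fell 2.83-fold, whereas Ly6c2 read 12.26, 12.57 and 11.96 in AML and 11.87, 11.91 and 12.05 in control (adjusted p = 0.187, and 0.0483 upward without AML array 3). Of 12 macrophage markers 8 fell and 0 rose, with sums from 2067 to 3257 in AML and from 4407 to 5012 in control, but 4 fell without AML array 2 and 1 each without control array 2 or control array 3. All 22 genes of these lists had means above the dim level. Of 12 neutrophil markers 10 fell, with sums from 7622 to 9639 in AML and from 22630 to 26700 in control. Ngp, which encodes a granule protein of neutrophils, fell by 1.11, and Retnlg, which encodes a secreted resistin-like protein, fell by 1.06 on the log2 scale.

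Of 11 eosinophil, basophil and mast cell markers 8 fell, with sums from 6561 to 8297 in AML and from 11760 to 14220 in control. The brightest gene, Prg2, weighs most in these sums, with means of 12.3 in AML and 12.74 in control. Prss34, a basophil protease gene, fell by 2.39, and the fall of Prg2, an eosinophil granule gene, by 0.44 (adjusted p = 0.0468) was lost whichever array other than AML array 3 was left out (adjusted p up to 0.157). Of 10 dendritic cell markers 3 fell, with sums from 469.3 to 544.6 in AML and from 749.1 to 805.0 in control. Zbtb46, Xcr1, Flt3, Ccr9 and Ciita of that list had means at or below the dim level. Without control array 2, 1 of the 10 fell. The brightest 2 of the dendritic cell list both had lower means in AML, but they differed in whether they passed limma's test. Itgax, which encodes the integrin CD11c, fell by 1.12. Ccr7, a chemokine receptor gene, differed by -0.28 with overlapping groups (adjusted p = 0.1625). The median difference of the list was -0.18. The part of these or of the following cell types in the lower values of the 10 receptor genes was not tested, and these bulk values do not show in which cells of a sort the receptor genes were transcribed.

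Of 8 granulocyte-monocyte progenitor markers, 1 fell and 2 rose, and with AML array 1, AML array 2 or control array 2 left out 1 fell and 0 rose. Of 7 B cell markers 5 fell (2 to 4 with 1 array left out), with sums from 288.7 to 335.3 in AML and from 459.3 to 521.7 in control. Of 6 erythroid markers 3 fell, with sums from 335.3 to 389.5 in AML and from 445.1 to 476.1 in control. Of 6 endothelial markers 5 fell (1 to 5 with 1 array left out), with sums from 224.2 to 276.1 in AML and from 351.9 to 427.4 in control. Of 8 T and NK cell markers 0 fell and 1 rose (1 fell and 0 rose under median centring, and 0 passed without any single array other than control array 1). Of 12 megakaryocyte markers 0 passed limma's test, and 0 fell and 2 rose at an unadjusted p under 0.05. At the adjusted threshold 1 rose without control array 1, under quantile normalization and with either filter on dim genes. The median difference of the megakaryocyte list was +0.26, with single genes from -0.14 to +0.46. Its brightest genes, Ppbp and Pf4, which encode platelet chemokines, differed by -0.14 and -0.11 (adjusted p = 0.424 and 0.546). They were the only genes of that list with a lower mean in AML. The sums overlapped, from 12900 to 18330 in AML and from 13430 to 17180 in control. Within the AML group array 1 had the highest mean for the 10 receptor genes (7.20) and also for the monocyte, macrophage, progenitor, B cell, erythroid and endothelial lists, and the lowest for the neutrophil list (8.23, against 8.55 and 8.38 on AML arrays 2 and 3).

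**Figure D4:**
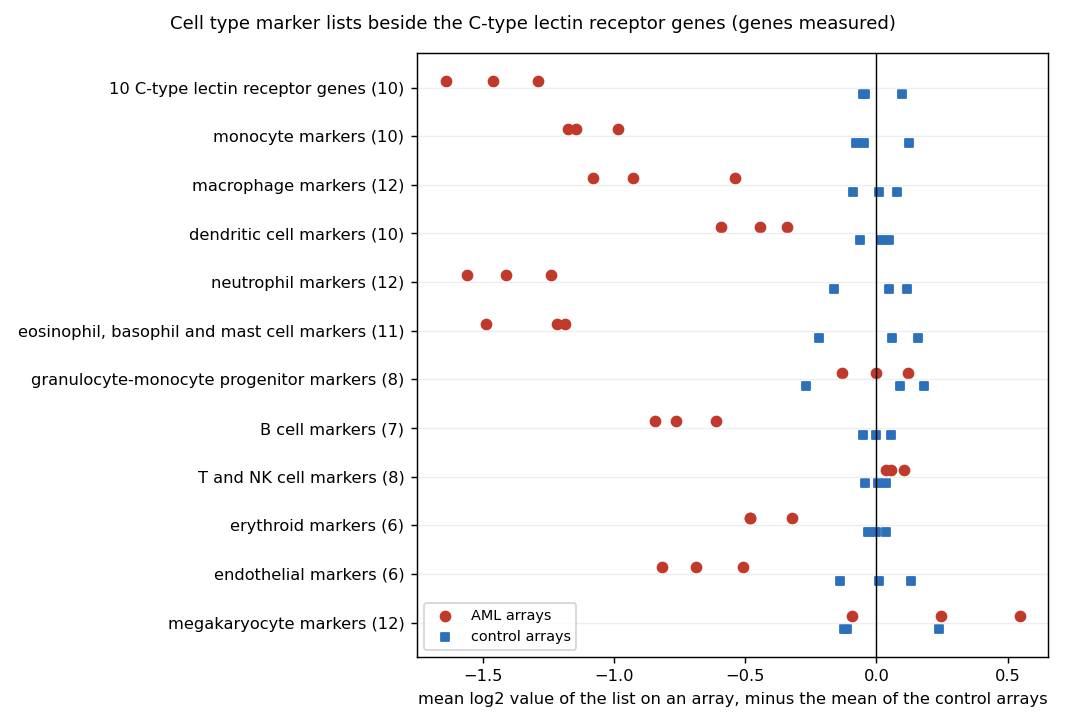
Mean log2 value of each list on an array, minus the mean of the control arrays, for the 10 receptor genes and 11 cell type marker lists (number of genes measured in brackets). AML arrays (circles) lie left of the control arrays (squares) for the receptor genes and for the monocyte, macrophage, dendritic cell, neutrophil, eosinophil, basophil and mast cell, B cell, erythroid and endothelial lists, and they overlap for the megakaryocyte and progenitor lists.

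The profile of the 10 genes was set beside that of 15022 other genes, those no dimmer on average than the median gene. Each gene was centred on its own mean over the 6 arrays, and the likeness was the root mean square distance to the mean profile of the 10. That mean profile read -0.56, -0.73 and -0.91 on AML arrays 1 to 3 and 0.68, 0.69 and 0.83 on the control arrays. The 8 closest genes, at distances of 0.0194 to 0.0960 log2 units, were H2-DMb1, Stk17b, Scarb2, Hilpda, Samhd1, Id2, Itga4 and Dse. H2-DMb1, which encodes a chaperone of MHC class II peptide loading, was the closest, with 7.30, 7.15 and 6.95 in AML and 8.50, 8.54 and 8.68 in control. Being chosen for this pattern, the 8 genes carry no test.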

How the data were processed

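Total RNA of sorted megakaryocytes (250 ng) was made into biotinylated cDNA for an Affymetrix array, per the labels' protocols. The authors deposited log2 values made with RMA, per the submitters' processing notes. The sources used here name neither its version nor the array's genome build. Median values per array ran from 5.294 to 5.322 in AML and from 5.163 to 5.240 in control.

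Of 72688 rows, 30604 carry 1 gene symbol in the platform's annotation, 2146 several and 39938 none. Symbols were updated through RefSeq's GRCm38.p6 gene list (22818 rows by gene number, 7476 by symbol, 308 by synonym, 2 unmatched). Of 429 genes with more than 1 row the brightest was used, which left 30063 genes. Listed genes without a row of a single symbol were not analysed here.

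limma (lmFit and eBayes, no trend, two-sided, Benjamini-Hochberg over all genes, threshold 0.05) compared AML with control, and 1350 genes rose and 1880 fell, or 505 and 2712 after median centring, which moved the median difference of all genes to -0.01 from +0.11. The total of 3230 became 1938 with AML array 1 left out, 1473 with AML array 2, 967 with control array 2 and 1058 with control array 3. The 10 genes and all lists were chosen with earlier results of these data known.

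The genes named were taken from the 10, Clec1b, the listed genes past the threshold with the smallest p (up to 10 other lectins, up to 4 of each other list), the brightest 2 markers of a list, genes between the outermost of the 10 on chromosome 6, and the 8 closest in profile, with others marked as chosen after their values were seen. A value at or below 5.51, the 95th percentile of means of 1528 olfactory and vomeronasal receptor genes, counted as dim, and a fold against a dim group is a bound against that level. Alternatives tried were a block for replicate number, a variance trend, quantile normalization, median centring, cyclic loess, 2 filters on dim genes, the mean of rows, and leaving out each array. Tools were limma 3.58.1 in R 4.3.3, and numpy 2.4.6, pandas 2.3.3 and matplotlib 3.10.9 in Python 3.11.15.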

Additional observations from a re-analysis of the deposited data

How the results depend on the processing

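The 10 receptor genes stood lower in AML under each of the 14 alternatives, with a median difference between -1.78 and -1.49. Most of these settings could not have shown otherwise. The block, the variance trend, the filters on dim genes and the mean of rows left the differences of these genes unchanged by construction. Leaving out an array could not reverse a direction, because all AML arrays lay below all control arrays in each gene. Median centring could not reverse a fall either, because the AML arrays had the higher medians and it moved every difference further down. Only quantile normalization and cyclic loess could have reversed a direction, and neither did. Differences of single genes ran from -2.36 to -0.13, and only that of Clec10a under median centring (-1.08) moved by more than its SD. Of 46 tested genes looked at singly that were past the threshold, 30 stayed past it in every alternative in which they had a value. Replicate numbers are not stated to pair the arrays. Deviations from the group means of equally numbered arrays correlated at -0.360, 0.142 and -0.291 across genes. Those of unequally numbered arrays correlated at -0.277 to 0.434. With 3 arrays a group, these values cannot show whether arrays were prepared together. With the replicate number as a block, 1067 genes passed in place of 3230, 9 other lectin genes in place of 11, and 6 signalling genes (6 lower, 0 higher) in place of 13. Leaving out each array gave 967 to 3606 genes, 9 to 13 other lectin genes, 5 to 13 signalling genes and 12 to 14 induced genes. Of the natural killer lectin-like genes, 3 of 9 passed without the lowest tertile and 2 of 4 without genes at or below the dim level, a filter chosen after seeing the data. Fewer genes of that list were tested there. For the 21 other lectin genes at or below the dim level, signal over background limits what a difference can show.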
